A study of Arabidopsis thaliana with 13 samples.

Results

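The step from hour 14 to hour 18 is the 4 h interval that ran from hour 38 to hour 42 in the first cycle of a time course and from hour 62 to hour 66 in the second. Hours of the course are given modulo 24, so hour 18 holds the arrays of hours 42 and 66, and hour 14 those of hours 38 and 62. These are 4 of the 13 arrays of the course. RNA of Arabidopsis thaliana (accession Col-0, whole seedlings) was hybridised every 4 h from hour 26 to hour 74, 1 ATH1 array each time. An ATH1 array is an Affymetrix chip on which a set of short oligonucleotides stands for each transcript. The labels name no mutation and no agent in any group, and all share developmental stage 1.0, a 12 h photoperiod at 22 C and plates of MS agar with 3% sucrose. The labels separate the groups only by the hour of sampling. What hour 0 marked, whether light and dark went on alternating during sampling, and how many seedlings made up a sample stand in none of the sources used here.

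The plant circadian clock is a loop of transcription factors that repress one another in turn and gate many output transcripts to particular times of day. Seedlings follow it in starch turnover, photosynthesis, pigment synthesis and cold tolerance. Anthocyanins and flavonols, pigments and sunscreens of the plant, are built from phenylalanine on a flavonoid skeleton. Late in that route dihydroflavonol reductase opens the anthocyanin branch, and sugars and acyl groups are then attached to the finished skeleton. COR genes encode hydrophilic proteins that protect membranes and enzymes in the cold. The clock sets how strongly they can be induced at a given time of day.

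The deposited signal is a linear intensity per probe set. The median signal lay between 46.8 and 50.9 over the 13 arrays. The root protein PYK10 (2524 to 3492) and the leaf genes RCA (2418 to 3950), LHCB4.1 (2422 to 3919) and LHCB4.2 (854 to 3127) were bright on every array. Markers of root and green shoot were thus both present. Root hair genes EXPA7 (21.7 to 60.8) and EXPA18 (35.3 to 64.9) were dimmer. EXPA7 fell on some arrays below 31.8, the mean signal that a probe set had to exceed to be tested. Markers of seed, pollen and flower were not analysed here by name. Because the material was whole seedlings, fewer cells of a type and less RNA per cell cannot be told apart in any difference below. Each time of day has only 2 arrays (3 for hour 2), and nothing in the labels says whether they came from separate cultures, so p-values measure the scatter of these arrays, whose number limits the precision.

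The first comparison asked which transcripts were switched within the step. Among 13647 tested probe sets, 37 (0.271%) differed between hour 18 and hour 14 at an adjusted p under 0.05 (limma, Benjamini-Hochberg). Of these, 32 (0.234%) were higher at hour 18 and 5 (0.0366%) were lower. All 37 moved the same way in both cycles, as did 7321 of all 13647. The calls rest on the mean of the changes in both cycles, so this agreement is not independent of their choice. The median log2 difference was 1.11 for the risers, over a range of 0.70 to 2.35, and -1.3 for the fallers. At an unadjusted p under 0.05 there were 983. A single gene was assigned to 12 of the 32 risers, which come from 11 loci, and to 1 of the 5 fallers.

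The count rests on single arrays. Without hour 38 or without hour 66 it was 0 (595 and 650 probe sets at an unadjusted p under 0.05), without hour 42 it was 11, and without hour 62 it was 65. The lone array left at that time is then assumed to vary like the other groups. When the cycle was entered as a replicate block, so that hour 42 is set against hour 38 and hour 66 against hour 62, 103 probe sets (0.755%) were called. They were 75 higher (0.55% of all tested) and 28 lower (0.205%), and they included all 37. Hour 74 is the only array of its cycle, so the block fits it exactly and it no longer adds to the scatter. With no block but without hours 26 and 74, 77 were called, so the gain cannot be credited to the pairing alone.

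Size gave a second view that needs no model. A change of at least 2-fold in both cycles was seen upward in 32 probe sets (0.234%), of which 14 were called, and downward in 15 (0.11%), of which 4 were called. Among 113 probe sets that were at least 2-fold higher at hour 42 than at hour 38, 96 (85.0%) were also higher at hour 66 than at hour 62, where 50.9% of all tested were. Of these 113, 32 (28.3%) passed 2-fold again, against 0.491% of all tested. Of 54 that were at least 2-fold lower at hour 42, 42 (77.8%) were lower at hour 66 as well, against 49.1% of all tested, and 15 (27.8%) passed 2-fold again. Chosen in the second cycle, 67 were at least 2-fold higher and 65 at least 2-fold lower. From hour 38 to 42, 51 (76.1%) and 45 (69.2%) of them had the same sign, against 48.6% and 51.4% of all tested. Those that passed 2-fold again were 32 (47.8%) of the higher and 15 (23.1%) of the lower, against 0.828% and 0.396% of all tested. The pairs 38 to 42 and 62 to 66 share no array. Across all 13647 probe sets the changes in the cycles correlated at r = 0.24, a value across genes that share their arrays and so no replicate of one another.

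**Figure D1:**
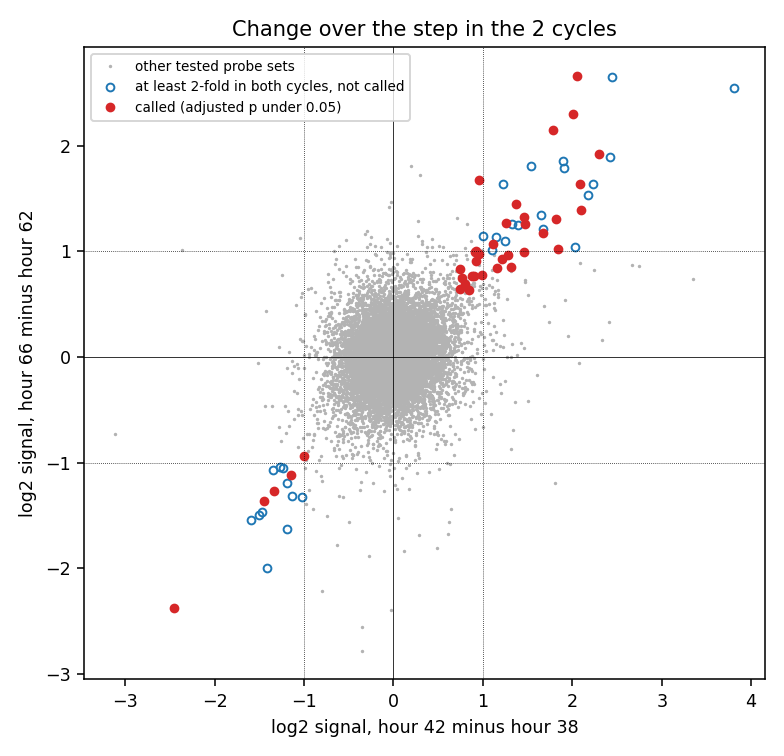
Each point is a probe set, with the log2 difference of hour 42 minus hour 38 on the x axis and of hour 66 minus hour 62 on the y axis. Red points are the 37 called and open blue circles the others that changed at least 2-fold in both cycles. Dotted lines mark 2-fold, and most of the 13647 probe sets lie in the grey cloud round 0.

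The probe sets just inside that limit have no single gene and moved by 1.00 to 1.02 on the log2 scale in their smaller cycle. Just outside it lay AFR at 0.99, the carboxypeptidase-like gene scpl46 at 0.99 and, downward, AT5G18600 with log2 changes of -0.99 and -1.05.

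Genes of flavonoid and anthocyanin synthesis and decoration stood higher at hour 18. Of 20 listed members, 8 had a named probe set and 7 passed the filter on dim signals. All 7 were higher at hour 18 in both cycles, as were 25.9% of all tested loci. In all 7, both hour 18 arrays lay above both hour 14 arrays, as they did for 18.6% of all tested probe sets. UGT89C1 was called (0.234% of all tested probe sets were called higher). With the cycle as a block 3 were called, UGT89C1, DFR and UGT78D2 (0.55% of all tested). The median log2 difference of the list was 1.53, against -0.00164 over all 7273 tested loci. The earlier enzymes of the route, from phenylalanine to the flavonoid skeleton, were not analysed here by name.

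UGT89C1 (AT1G06000) attaches rhamnose to position 7 of flavonols. Its signal was 402 at hour 42 and 398 at hour 66, against 186 at hour 38 and 190 at hour 62. The groups stood far apart and the cycles were almost the same, with a log2 difference of 1.09 ± 0.16 (SE, limma, n = 2 arrays each), a 2.13-fold rise (adjusted p = 0.020). Over the course it was lowest at hour 34 (68.0) and highest at hour 46 (437) in the first cycle.

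DFR (AT5G42800), the dihydroflavonol reductase, had signals of 185 and 302 at hours 42 and 66, against 49.6 and 83.5 at hours 38 and 62. It was 3.68-fold higher at hour 18 (log2 difference 1.88 ± 0.38, SE). The second cycle ran higher at both times, with log2 differences over the step of 1.90 in the first and 1.86 in the second. The limma fit gave an adjusted p of 0.074, and of 0.0044 with the cycle as a block.

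Among probe sets above the filter, the largest difference of a named gene belonged to UGT75C1 (AT4G14090), which adds glucose to position 5 of anthocyanins. It read 112 and 241 at hours 42 and 66, against 20.8 and 38.6 at hours 38 and 62. That is 5.82-fold, or 4.06-fold with 16 added to each signal before the log, and was not called (log2 difference 2.54 ± 0.74 SE, adjusted p = 0.33, and 0.053 with the cycle as a block). Signals of this gene at hours 30 and 34 were as low as 2.15 and 2.34, so the gain of the step came after a trough near the bottom of the scale.

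The acyltransferase 5MAT (AT3G29590), which adds malonyl groups to anthocyanins, read 55.8 and 72.9 at hours 42 and 66, against 19.2 and 20.8 at hours 38 and 62 (3.19-fold, adjusted p = 0.47, and 0.18 with the cycle as a block). The anthocyanin xylosyltransferase UF3GT (AT5G54060) read 215 and 294 at hour 18, against 52.7 and 143 at hour 14. It was 4.08-fold higher in the first cycle and 2.05-fold higher in the second, and it was not called (adjusted p = 0.35, and 0.075 with the cycle as a block). Both genes were at least 2-fold higher in each cycle, as were UGT75C1, DFR and UGT89C1.

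The UGT78D enzymes attach the first sugar to the flavonoid. UGT78D2, a flavonoid 3-O-glucosyltransferase, read 309 and 304 at hour 18, against 170 and 190 at hour 14 (1.71-fold, adjusted p = 0.071, and 0.025 with the cycle as a block). UGT78D1, a flavonol 3-O-rhamnosyltransferase, read 209 and 203 at hour 18, against 73.2 and 135 at hour 14 (2.07-fold, adjusted p = 0.13, and 0.059 with the cycle as a block). UGT78D3 was too dim to be tested, at 9.84 and 3.78 at hour 18, against 3.91 and 9.75 at hour 14, and had opposite signs in the cycles. A wider list of 26 tested UGT glycosyltransferases, matched by symbol, holds UF3GT, UGT78D1 and UGT78D2 but neither UGT89C1 nor UGT75C1, which the gene table lists by locus. In it 0 were called, 11 were higher and 6 lower in both cycles, and the median log2 difference was 0.09.

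**Figure D2:**
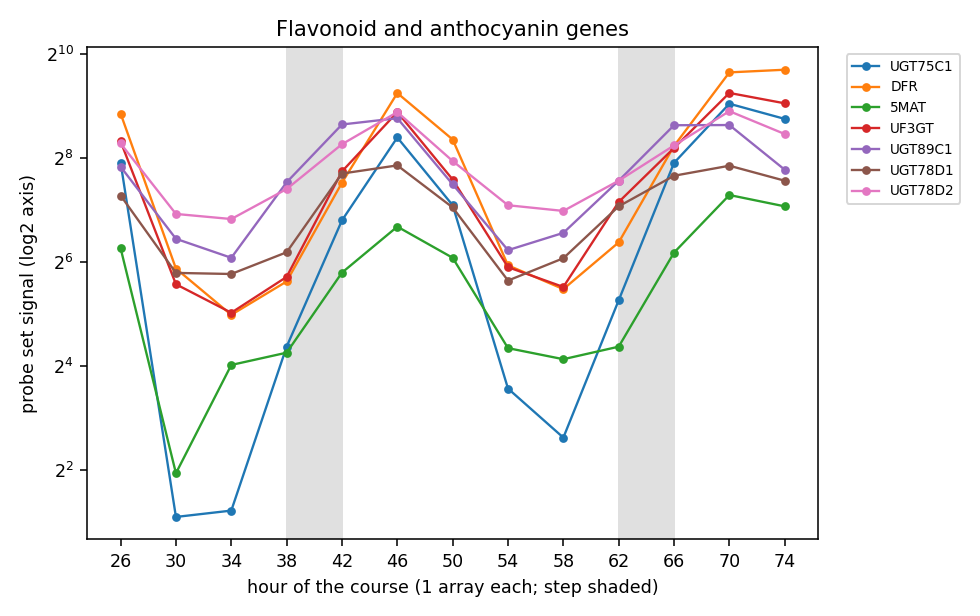
Signal of 7 flavonoid and anthocyanin genes (log2 axis) against the hour of the course, 1 array per point, with the steps from 38 to 42 and 62 to 66 shaded. All 7 lines climb within both shaded bands, and DFR goes on to 611 at hour 46 and 805 at hour 70.

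The other named risers have no list in common. AT5G35970 rose 3.35-fold (log2 1.74 ± 0.27 SE, adjusted p = 0.026, limma), with signals of 324 and 399 at hours 42 and 66, against 75.6 and 152 at hours 38 and 62. It was 4.28-fold higher in the first cycle and 2.63-fold higher in the second. AT1G65490 rose 2.96-fold (adjusted p = 0.031), reading 204 and 253 at hour 18, against 57.8 and 102 at hour 14. Hour 38 was the lowest of the 4 arrays for both genes.

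AFR (AT2G24540) encodes an F-box protein that acts positively in signalling from the red and far-red photoreceptor phytochrome A. It read 209 and 234 at hours 42 and 66, against 76.0 and 118 at hours 38 and 62 (log2 difference 1.23 ± 0.22 SE, adjusted p = 0.043). Its groups did not overlap, as in 18.6% of all tested probe sets in this direction, and the call rests on these same arrays. AT5G54130 was read by a pair of probe sets that were both called, with log2 differences of 1.37 and 1.27, and the brighter read 91.2 and 97.1 at hour 18, against 32.8 and 40.6 at hour 14.

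Smaller rises were called as well, and a small difference is called only where its SE is small. AT2G34460 had the smallest SE among the named risers, with signals of 377 and 402 at hour 18, against 199 and 214 at hour 14. It rose 1.88-fold (log2 0.91 ± 0.11 SE, adjusted p = 0.0061), with log2 differences of 0.92 and 0.91 in the cycles. AT3G17800 rose 2.12-fold, at 454 and 488 at hour 18, against 181 and 271 at hour 14 (adjusted p = 0.018). The remaining called risers were AT2G19650, AT3G01060, AT1G62250 and AT4G26860, with log2 differences of 1.07, 0.96, 0.74 and 0.70 and with adjusted p from 0.029 to 0.040. In each of them both hour 18 arrays exceeded both hour 14 arrays, as in 18.6% of all tested probe sets, and the calls rest on these same arrays.

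Further named loci were at least 2-fold higher in both cycles and not called. SAG29 (AT5G13170), also known as the sugar transporter SWEET15, read 155 and 196 at hour 18, against 61.8 and 81.9 at hour 14 (2.46-fold, adjusted p = 0.085, and 0.058 with the cycle as a block). AT5G62210 read 168 and 246 at hour 18, against 71.6 and 78.9 at hour 14 (2.70-fold, adjusted p = 0.074, and 0.0006 with the cycle as a block). AT2G27420, a cysteine protease by family, read 54.8 and 81.1 at hour 18, against 24.8 and 36.7 at hour 14 (2.21-fold, adjusted p = 0.28). Of 10 tested SWEET genes, SAG29 was the 1 that was at least 2-fold higher in both cycles, 0 were called, and the median log2 difference was 0.02. SWEET14 read 41.6 and 67.2 at hour 18, against 28.4 and 32.7 at hour 14 (1.74-fold, adjusted p = 0.47), and the brightest member, SWEET11, read 452 and 534 at hour 18, against 520 and 547 at hour 14.

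**Figure D3:**
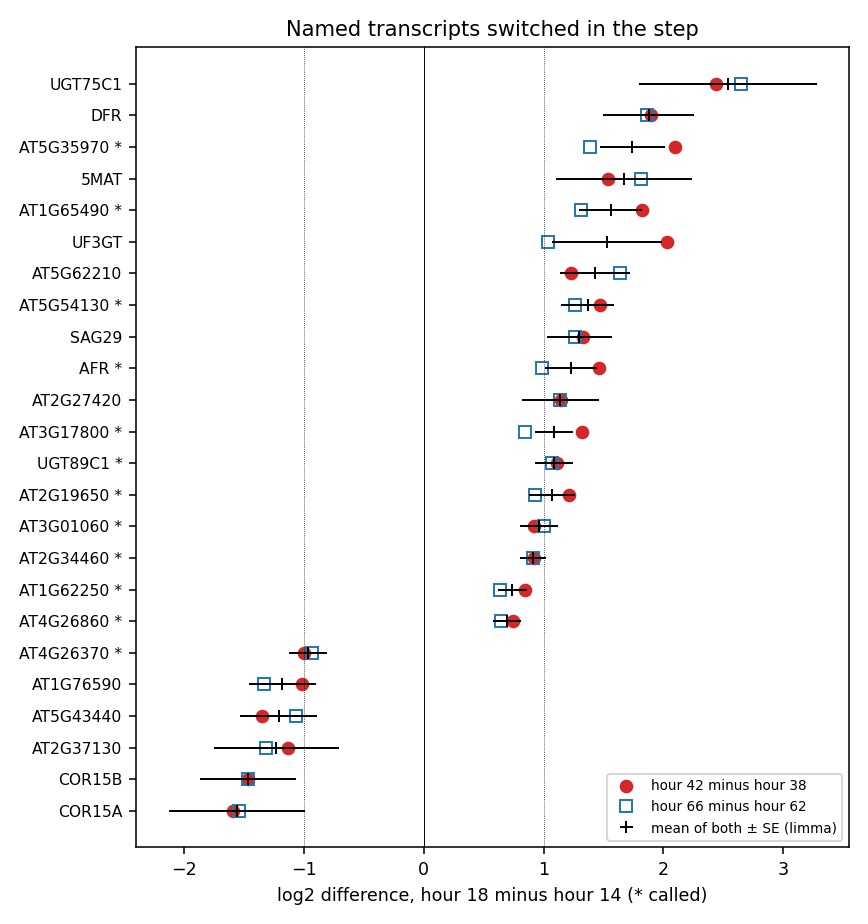
Log2 difference of hour 18 minus hour 14 for 24 named genes that were called (asterisk) or changed at least 2-fold in both cycles with signals above the filter at the higher time. Filled circles are hour 42 minus 38, open squares are hour 66 minus 62, and bars show the mean ± SE from limma. UGT75C1 is at the top at 2.54 and COR15A at the bottom at -1.56.

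The cycle block added risers with small spread within a cycle, which are named here after their values were seen. Among them, AT1G44000, a relative of the chlorophyll breakdown protein STAY-GREEN, read 456 and 463 at hour 18, against 262 and 305 at hour 14 (1.63-fold, adjusted p = 0.085, and 0.016 with the block). AT1G19450, an ERD6-like sugar transporter, read 298 and 279 at hour 18, against 166 and 183 at hour 14 (1.65-fold, adjusted p = 0.24, and 0.014 with the block). AT1G18810, of the phytochrome kinase substrate family, read 57.5 and 57.2 at hour 18, against 29.8 and 33.8 at hour 14 (1.81-fold, adjusted p = 0.068, and 0.037 with the block). AT5G48490, a relative of the lipid transfer protein DIR1, read 529 and 597 at hour 18, against 324 and 239 at hour 14 (2.02-fold, adjusted p = 0.081, and 0.048 with the block). In these 4 genes both hour 18 arrays exceeded both hour 14 arrays, as in 18.6% of all tested probe sets. This is not independent of their choice, which used the same arrays.

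On the falling side, 1 named gene was called. AT4G26370, which carries a NusB domain known from bacterial antitermination, read 70.8 and 60.4 at hours 42 and 66, against 142 and 115 at hours 38 and 62. It fell by 0.97 on the log2 scale (SE 0.16, adjusted p = 0.029, limma), by 1.00 in the first cycle and by 0.93 in the second. Its peak in both cycles was 4 h before the step, at 185 (hour 34) and 174 (hour 58). The largest fall among the tested probe sets belonged to one to which no single gene is assigned here, with a log2 difference of -2.42 ± 0.34 (5.34-fold lower, adjusted p = 0.018).

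Cold-regulated genes were lower at hour 18. Of 18 listed members, 5 could be named and 3 of those passed the filter. All 3 were lower in both cycles, as were 26.9% of all tested loci. None was called (0 of 3, against 0.0366% of all tested called lower), and 2 were called with the cycle as a block (0.205% of all tested). The list's median log2 difference was -1.47, against -0.00164 over all tested loci.

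COR15B (AT2G42530) read 183 and 188 at hours 42 and 66, against 507 and 522 at hours 38 and 62. Its log2 difference was -1.47 in each cycle (2.77-fold lower, SE 0.40, adjusted p = 0.26, and 0.024 with the cycle as a block). COR15A (AT2G42540) read 105 and 154 at hour 18, against 315 and 446 at hour 14 (2.95-fold lower, SE 0.57, adjusted p = 0.52, and 0.00019 with the block). Both times ran higher in the second cycle for COR15A, while the difference stayed at -1.59 and -1.54 on the log2 scale. The SE of these genes in the fit without a block also holds their scatter at other times of day: at hour 74, 48 h after hour 26, COR15A read 477, against 92.2 at hour 26 and 132 at hour 50. COR15A and COR15B have neighbouring locus numbers, and signal of either transcript on the other's probe set was not tested.

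The dehydrin COR47 read 464 and 321 at hour 18, against 539 and 521 at hour 14 (log2 difference -0.46, adjusted p = 0.70). COR27, a clock-linked cold gene, lay under the filter, and read 37.3 and 40 at hour 18, against 91.3 and 98.8 at hour 14 (log2 differences of -1.29 and -1.3). COR28, also under the filter, read 36.8 and 33.1 at hour 18, against 53.0 and 53.0 at hour 14. With all probe sets tested, neither was called (adjusted p of 0.99 and 1.0).

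AT4G30650 and AT4G30660, low temperature and salt responsive proteins of the RCI2 family, were outside the list. The fit of all 13 arrays did not call them, and the cycle as a block did, among other alternatives. AT4G30650 read 412 and 348 at hour 18, against 715 and 784 at hour 14 (1.98-fold lower, adjusted p = 0.60, and 0.034 with the block). AT4G30660 read 346 and 308 at hour 18, against 528 and 639 at hour 14 (1.78-fold lower, adjusted p = 0.12, and 0.014 with the block).

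Several other transcripts were at least 2-fold lower in both cycles. AT2G37130, peroxidase 21, read 193 and 120.0 at hour 18, against 421 and 300.0 at hour 14 (2.34-fold lower, adjusted p = 0.62, and 0.058 with the block). AT1G76590, a PLATZ-type zinc-binding factor, read 34.1 and 33.0 at hour 18, against 69.2 and 83.1 at hour 14 (2.26-fold lower, adjusted p = 0.17, and 0.029 with the block). AT5G43440, an oxygenase of the 2-oxoglutarate dependent family, read 15.3 and 17.2 at hour 18, against 39.0 and 36.0 at hour 14 (2.31-fold lower, adjusted p = 0.25, and 0.048 with the block). AT5G62280 read 16.8 and 3.62 at hour 18, against 44.6 and 14.5 at hour 14, which is 3.26-fold lower as deposited and 1.69-fold lower with 16 added to each signal. The universal stress protein AT3G53990 did not reach 2-fold in the first cycle, and read 184 and 123 at hour 18, against 277 and 248 at hour 14 (1.74-fold lower, adjusted p = 0.12, and 0.036 with the block).

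**Figure D4:**
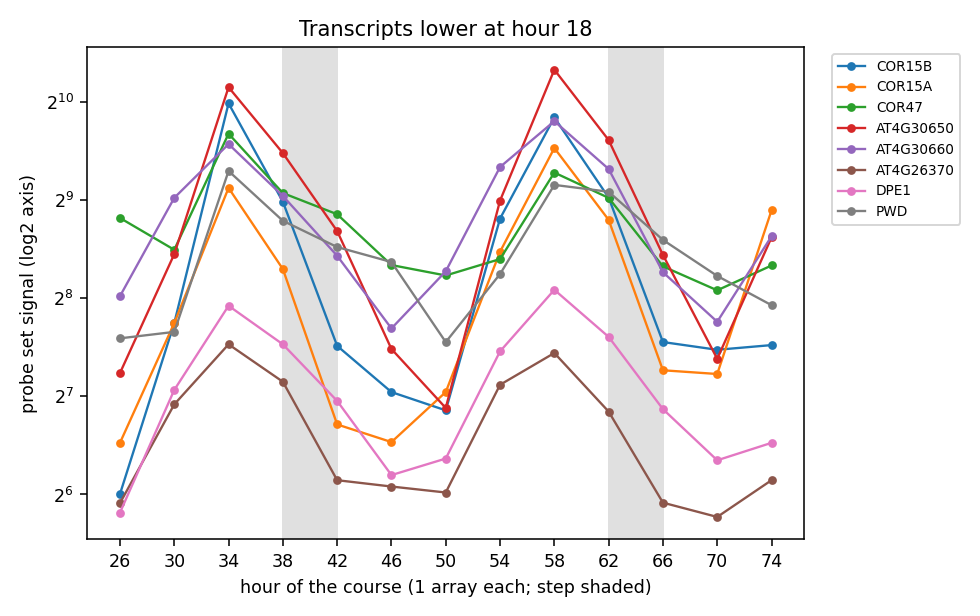
Signal of 8 genes that were lower at hour 18 (log2 axis) against the hour of the course, 1 array per point, with the steps from 38 to 42 and 62 to 66 shaded. Each of the 8 lines descends within both shaded bands, from peaks at hours 34 and 58. AT4G26370 is the called gene among them.

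Of the starch genes, 2 of 16 listed for breakdown and 2 of 12 listed for synthesis were tested, and none was called with or without the block. DPE1, the disproportionating enzyme that handles maltotriose in the chloroplast, read 124 and 117 at hour 18, against 185 and 195 at hour 14 (1.58-fold lower, adjusted p = 0.39, and 0.088 with the block). PWD, the phosphoglucan water dikinase, read 368 and 387 at hour 18, against 443 and 544 at hour 14 (log2 difference -0.38, adjusted p = 0.74). APL3, a large subunit of ADP-glucose pyrophosphorylase, read 123 and 130.0 at hour 18, against 62.1 and 86.8 at hour 14 (1.72-fold, adjusted p = 0.62), and the branching enzyme SBE2.2 read 361 and 392 at hour 18, against 250.0 and 304 at hour 14 (1.37-fold, adjusted p = 0.21).

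Among clock genes, 4 of 25 listed members were tested and 0 were called. GI, a clock protein of the evening, read 35.4 and 53.9 at hour 18, against 53.1 and 69.9 at hour 14 (log2 difference -0.48 ± 0.29 SE, adjusted p = 0.83), and its groups overlapped. XCT read 58.9 and 54.3 at hour 18, against 47.7 and 50.1 at hour 14 (0.21 ± 0.15 SE). TIC and RVE6 had opposite signs in the cycles, with means of -0.04 and -0.17 on the log2 scale. In the antenna of photosystem II, LHCB4.2 read 1291 and 1662 at hour 18, against 854 and 970.0 at hour 14 (1.61-fold, adjusted p = 0.31). Those hour 14 signals were the lowest of its course in either cycle. LHCB4.3 read 159 and 191 at hour 18, against 99.7 and 148 at hour 14 (1.43-fold, adjusted p = 0.56), while LHCB4.1 read 3054 and 2769 at hour 18, against 2834 and 2803 at hour 14.

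Of the other lists with tested members, none held a called gene. The median log2 difference was 0.19 over 3 Calvin cycle genes, 0.01 over 4 genes of chlorophyll synthesis and -0.31 over 3 gibberellin genes. It was -0.13 over 5 reference genes and 0.04 over 3 root markers. Among families named by symbol, 12 beta-glucosidases had a median of -0.21 with 8 lower in both cycles, and 13 serine carboxypeptidase-like genes had a median of -0.10. Expansins (10, median 0.06) held EXPB3, a beta-expansin that loosens cell walls, at 999 and 880.0 at hour 18, against 539 and 597 at hour 14 (1.65-fold, adjusted p = 0.31, and 0.075 with the block). GSTU20, a glutathione transferase, read 1314 and 1476 at hour 18, against 776 and 1041 at hour 14 (1.55-fold, adjusted p = 0.35). HYH, a bZIP factor of light signalling, read 62.7 and 45.5 at hour 18, against 31.7 and 36.2 at hour 14 (1.58-fold, adjusted p = 0.69). Over all tested loci, 25.9% were higher and 26.9% lower in both cycles.

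Arrays that the step did not use showed where the switched transcripts stood before and after it. Hour 22 lay above hour 10 in 32 of 32 called risers, with a median log2 difference of 1.84, and in 0 of 5 called fallers, with a median of -2.04, where it did so in 48.7% of all tested probe sets. The highest time of day was hour 22 for 25 risers and hour 2 for the other 7. Their lowest was hour 10 for 25 and hour 14 for 7. No called riser had its highest level at hour 18, so the step lay on the way up. Of the 15 probe sets at least 2-fold lower in both cycles, 11 were highest at hour 10, 3 at hour 14 and 1 at hour 6.

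A test of hour 18 against the mean of hours 14 and 22 asked where hour 18 departed from the midpoint of its neighbours on the log2 scale. Such a departure can be a change of pace in a steady rise or fall as well as a turn. It called 1 of 13647 probe sets (0.00733%), a negative difference on a probe set without a single gene, and 425 passed at an unadjusted p under 0.05. With the cycle as a block it called 0 (605 at an unadjusted p under 0.05). The named genes of smallest p in it were not called: THI2.2, a thionin, read 108 and 87.9 at hour 18, against 160.0 and 150 at hour 14 (log2 difference from the mean of its neighbours -0.78), and AT2G34460 lay 0.39 above that mean. AT2G34460 did not turn, as it went on from 377 at hour 42 to 438 at hour 46 and from 402 at hour 66 to 416 at hour 70.

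The step from hour 2 to hour 6 lies 12 h away and uses none of the same arrays. The difference of both steps was tested directly, as hour 18 minus 14 less hour 6 minus 2. It was called in 447 probe sets (3.28%), 238 of them positive and 209 negative, with 2352 at an unadjusted p under 0.05. The 37 switched probe sets were all among them, which is not independent of their choice because the difference contains the step. Leaving out hour 38 gave 169 calls, leaving out hour 42 gave 266 and leaving out hour 66 gave 201, and the cycle as a block gave 778.

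Genes of the flavonoid and anthocyanin list differed between the steps, where 3.28% of all tested probe sets were called. DFR differed by 4.94 on the log2 scale between the steps (adjusted p = 0.00068), UGT89C1 by 2.45 and UGT78D2 by 1.99 (both 0.00068). Among named genes these had the smallest p of the positive differences. The larger part of each came from a fall between hours 2 and 6. Log2 changes in that step were -3.06 for DFR, -1.36 for UGT89C1 and -1.22 for UGT78D2. In the step from hour 14 to 18 they were 1.88, 1.09 and 0.77. UGT75C1 differed by 8.13 (adjusted p = 0.0013) and 5MAT by 5.01 (adjusted p = 0.0041), where signals of 2.15 and 3.85 at hour 30 entered. Of these, -5.59 and -3.33 were the changes from hour 2 to 6. COR15B differed by -2.96 (adjusted p = 0.010), and COR15A by -2.18 without a call (adjusted p = 0.17).

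Counts of calls in the main fit placed the step among the quieter intervals of the day. The step from hour 14 to 18 had 37 calls. There were 468 calls (3.43%) from hour 2 to 6, 398 (2.92%) from hour 6 to 10 and 69 (0.506%) from hour 10 to 14. The step from hour 18 to 22 had 10 (0.0733%), and that from hour 22 to 2 had 71 (0.52%). Neighbouring steps share arrays, and the difference in counts was not tested. Steps that begin or end at hour 2 have 3 arrays at that time, where the other times have 2. The count of the step from hour 14 to 18 also moved between fits, so its place beside the counts near it is not settled. Changes of at least 2-fold in both cycles were less uneven, with 47 probe sets in the step from hour 14 to 18, against 103, 95, 57, 43 and 47 in the others in the same order. Its calls leaned upward, 32 to 5, where the step from hour 2 to 6 had 246 upward and 222 downward.

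**Figure D5:**
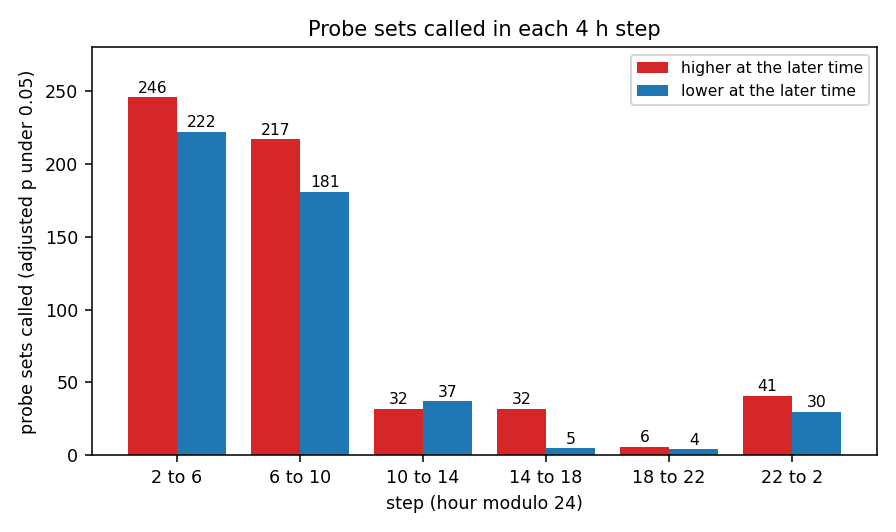
Probe sets called (adjusted p under 0.05, limma) in each 4 h step of the day, higher in red and lower in blue, with the count above each bar. The step from hour 14 to 18 has 32 and 5, between 246 and 222 for hours 2 to 6 and 6 and 4 for hours 18 to 22.

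The cycles differed in level for the risers. The signal at hour 62 was above that at hour 38 in 29 of the 32 called risers (90.6%), against 50.4% of all tested probe sets, and hour 66 was above hour 42 in 28. The change was larger in the first cycle for 22 of 32 (68.8%, against 51.8% of all tested), with median log2 differences of 1.24 in the first cycle and 1.00 in the second. AT5G35970, AT1G65490 and AFR are among those with a higher hour 62 and a larger first change. With 1 array per time point, the cycle and the single array cannot be told apart.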

How the data were processed

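The authors deposited 1 linear intensity per probe set and array. Per the submitters' processing notes MAS5 was used (version not given in the sources used here). Such scaling to a common level cannot show a change in RNA content, and its low signals scatter widely on the log scale. Here, log2 was taken of 22746 non-control probe sets, and the 13647 with a mean above the 40th percentile (signal 31.8) were tested. The 13 arrays were grouped by hour modulo 24 and a linear model of these groups was run in limma 3.58.1 under R 4.3.3 (lmFit, contrasts, eBayes with an intensity trend, 7 residual degrees of freedom), with Benjamini-Hochberg adjustment over all tested probe sets and a threshold of 0.05. The fits were checked on simulated data.

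Probe sets were named where the platform annotation gives 1 gene (13513, of which 13436 matched the TAIR10.1 gene table), with the brightest probe set per locus. The members and lists were chosen with earlier results of these data known. The rule named up to 12 genes each way among those called and alike in both cycles, filled with those changed 2-fold in both, then from each list at most 4 called and 2 uncalled members, all clock genes, and the extremes of the other tests. Other flavonoid, UGT, SWEET and antenna members and the genes that gained a call with the block were chosen after their values were seen. The cycle (hours 26 to 46, 50 to 70, 74), taken from the labelled hours, served as the block. Deviations from the group means correlated at 0.096 for each pair within a cycle and -0.096 across cycles. With 2 arrays per group the deviations mirror each other, so this is a single value and the opposite sign across cycles is forced. Figures were drawn with matplotlib 3.10.9. No coordinates or sequences were used here.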

Additional observations from a re-analysis of the deposited data

Results flagged for a closer look

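Differences between the step from hour 14 to 18 and the step from hour 2 to 6, with the smallest p among named genes, are given on the log2 scale. On the positive side they were 4.94 for DFR, 2.45 for UGT89C1 and 1.99 for UGT78D2. On the negative side they were -2.57 for AT4G32340, -2.26 for AT5G61590 (the ERF-type factor DEWAX, a repressor of wax synthesis) and -1.96 for AT4G26370. All 6 passed limma's test of the difference itself, with adjusted p from 0.00068 to 0.00075. Only AT4G26370 and UGT89C1 of these were called in the step alone. On the negative side, the log2 change from hour 2 to 6 was 2.06 for AT4G32340, 1.54 for AT5G61590 and 0.99 for AT4G26370. From hour 14 to 18 it was -0.51, -0.72 and -0.97. For DFR, UGT89C1 and UGT78D2 the change from hour 2 to 6 was also the larger, as given above.

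A few named probe sets moved in opposite directions in the cycles, and that difference was not tested. AT5G42330 changed by -2.36 on the log2 scale from hour 38 to 42 and by 1.01 from hour 62 to 66, with signals of 7.57 and 93.3 at hours 42 and 66, against 38.9 and 46.5 at hours 38 and 62. AT4G32605 changed by 1.34 and -0.69, AT2G13440 by -0.73 and 0.79, and AT3G13150 by -0.73 and 0.71, in the same order. None was called in the step.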

How the results depend on the processing

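Among 62 named genes that were followed, 12 of them called, no difference changed sign under any alternative run. For most genes, most of these runs could not have changed it. The block, filter, trend, moderation and 4-array runs, and that without hours 26 and 74, leave the difference itself unchanged. In all but GI, HEMB1 and AT5G62280, the signals at the start and end of the step did not overlap. The offset or an array left out then cannot reverse the sign. Linear time and quantile normalization could have reversed it, and did not. The 62 leave out TIC, RVE6, XCT, LHCB4.1, most SWEET and UGT genes and the genes of opposite sign in the cycles. LHCB4.1 would change sign without hour 42, since hour 66 (2769) lay under hours 38 (2834) and 62 (2803). The called probe sets without a single gene were not followed one by one. The total of 37 called became 103 with the cycle as a replicate block, 77 without hours 26 and 74, 67 with only the 4 arrays of the step, 0 without moderation of the variance (920 at an unadjusted p under 0.05) and 0 to 65 with one of the 4 arrays left out. The 32 higher became 75 with the replicate block, 56 without hours 26 and 74, 21 with no filter, 20 without the intensity trend, 0 without moderation and 0 to 57 with one array left out. The 5 lower became 28 with the block, 21 without hours 26 and 74, 24 with only the 4 arrays, 11 with linear time, 0 without moderation and 0 to 8 with one array left out. Totals of 26 to 49 came with linear time, an offset of 16, no filter, a filter at the 60th percentile, quantile normalization and no trend. The 447 calls of the difference with the step from hour 2 to 6 became 778 with the block, 134 without moderation and 169 to 438 with one array left out. The 1 call at hour 18 against its neighbours became 0 with the block, the offset, no filter, no trend, no moderation and without hours 26 and 74, and 0 to 5 with one array left out (262 to 801 at an unadjusted p under 0.05 over all alternatives). Without the filter, 236 and 199 probe sets were at least 2-fold higher and lower in both cycles, since dim probe sets then enter. A change in both cycles could not be computed with an array left out. The other causes were not tested. Among the 62 genes the block gave 33 further calls and ended none, but a call with the block was itself a reason to include a gene. The 33 are therefore fixed by that choice. Of 37 calls, 24 were shared with no trend, 25 with no filter, 27 with the 4 arrays alone and 8 without hour 42.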

Other observations

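Of 9099 probe sets under the filter, 1 was called when all were tested. AT5G66740 read 19.0 and 19.3 at hours 42 and 66, against 2.37 and 3.57 at hours 38 and 62 (log2 difference 2.72, adjusted p = 0.043, limma). Among these dim probe sets, 204 were at least 2-fold higher and 184 at least 2-fold lower in both cycles.

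Further loci gained a call with the cycle as a block, and in some other alternatives. Higher at hour 18 were AT2G27360, a GDSL-type lipase (92.7 and 73.8 at hour 18, against 41.3 and 48.9 at hour 14), and AT1G62510, a member of the lipid transfer protein superfamily (455 and 491 at hour 18, against 183 and 279 at hour 14). Lower were AT3G47160 (146 and 131 at hour 18, against 266 and 276 at hour 14) and AT5G27280 (121 and 156 at hour 18, against 278 and 257 at hour 14).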
